A study of Mus musculus with 20 samples.

Results

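The 10 genes described here mark the endothelial cells that line the blood vessels of the liver. They were taken by symbol from the 50559 genes of the count table, and 10 of 10 were found. *Stab1*, *Stab2*, *Lyve1*, *Clec4g* and *Oit3* encode scavenger, hyaluronan-binding and lectin receptors or other products typical of sinusoidal endothelium. *Kdr*, *Flt4* and *Ptprb* encode VEGF receptors and a receptor phosphatase of endothelial cells. *Cd34* and *Plvap* are used as marks of capillarized endothelium. Whole-liver RNA came from 20 mice of 1 genotype, *Cideb* fl/fl, with 5 livers in each of 4 groups. CIDEB acts in hepatocytes on the growth of lipid droplets and on the loading of VLDL particles with lipid. All mice received an adeno-associated virus whose TBG promoter is active in hepatocytes. It carried GFP in mice called WT here (AAV-TBG-GFP) and Cre in mice called KO (AAV-TBG-Cre), so that *Cideb* was deleted in hepatocytes and endothelial cells kept the intact floxed allele. Each genotype was fed a Western diet (WD) or a high-fat diet with defined amino acids and no choline (CDA-HFD). The sample labels give 3 months for both diets, whereas the study's methods give 24 weeks of WD and 12 weeks of CDA-HFD and injection at 6 weeks of age, so diet cannot be told apart from feeding time and cohort.

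Sinusoidal endothelial cells form a thin sieve without a continuous basement membrane, which lets plasma reach hepatocytes. Their scavenger receptors clear hyaluronan, modified proteins and other waste from the blood, and VEGF from hepatocytes helps to maintain their state. In fibrosis they can lose their pores, deposit a basement membrane and take on features of ordinary capillaries, which is called capillarization, and CD34 on sinusoids is a classical sign of it. PLVAP forms the diaphragms of fenestrae and caveolae in capillaries and veins.

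In the GRCm38 annotation, *Stab2* lies on the minus strand at chr10:86841198-87008025, *Kdr* on the minus strand at chr5:75932827-75978458 and *Cd34* on the plus strand at chr1:194938819-194961279. The others are *Stab1* at chr14:31139013-31168641, *Lyve1* at chr7:110850607-110863239, *Clec4g* at chr8:3707064-3720651, *Oit3* at chr10:59422958-59441778 and *Plvap* at chr8:71497765-71511752, all on the minus strand, with *Flt4* at chr11:49609263-49652739 and *Ptprb* at chr10:116275523-116389535 on the plus strand. Exons of *Stab2*, *Clec4g* and *Cd34* share 141, 146 and 148 bp with annotated antisense genes, and those of *Stab1* share 112 bp with *Nt5dc2* on the other strand. Whether reads were counted by strand is not given in the sources used here, so reads in those stretches cannot be assigned with certainty.

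Promoter sequence was available for 6 of the 10 genes in the RefSeq table of GRCm38.p6, from 250 bases before to 50 bases after the start of the gene. The 3 shown belong to a scavenger receptor, a VEGF receptor and the capillary gene whose RNA moved with the diet, and are written 5′ to 3′ along each gene's strand. Capitals mark the letters CAGGAA or CCGGAA or their reverse complements, which are cores recognized by ETS factors, a family with known roles in endothelial genes. The windows are chr10:87007893-87008192 on the minus strand, chr5:75978406-75978705 on the minus strand and chr1:194938571-194938870 on the plus strand.
*Stab2*: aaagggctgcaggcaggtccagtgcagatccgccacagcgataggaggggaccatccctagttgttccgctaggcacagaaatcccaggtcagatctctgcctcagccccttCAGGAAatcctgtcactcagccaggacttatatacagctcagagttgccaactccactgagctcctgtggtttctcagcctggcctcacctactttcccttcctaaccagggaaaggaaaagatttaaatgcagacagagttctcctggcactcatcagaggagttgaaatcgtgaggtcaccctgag
*Kdr*: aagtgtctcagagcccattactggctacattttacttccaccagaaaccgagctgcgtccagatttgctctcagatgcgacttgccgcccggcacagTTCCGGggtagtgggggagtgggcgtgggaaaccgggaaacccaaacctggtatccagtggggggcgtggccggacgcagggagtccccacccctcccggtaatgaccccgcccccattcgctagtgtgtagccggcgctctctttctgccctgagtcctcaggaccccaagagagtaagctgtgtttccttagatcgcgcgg
*Cd34*: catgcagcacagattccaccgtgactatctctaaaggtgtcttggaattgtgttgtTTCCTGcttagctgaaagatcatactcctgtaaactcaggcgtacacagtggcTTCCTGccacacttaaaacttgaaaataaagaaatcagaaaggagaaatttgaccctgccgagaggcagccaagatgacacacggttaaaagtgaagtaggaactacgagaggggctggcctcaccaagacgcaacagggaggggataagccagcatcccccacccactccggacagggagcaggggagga
CAGGAA was found on either strand in 4 of the 6 windows (*Stab1*, *Stab2*, *Clec4g* and *Cd34*) and in 30.6% of all 32851 windows of this kind. CCGGAA was found in that of *Kdr* and in 14.9% of all windows, and the window of *Flt4* held neither. CACCC, the core of sites for KLF factors, was in each of the 6 windows and in 57.5% of all. The GC box GGGCGG was in those of *Kdr* and *Flt4* (35.7% of all), TATAAA was in that of *Clec4g* (13.6%), and the GATA core AGATAA was in none of the 6 (11.2%). These matches describe the letters of the windows, and binding was not measured.

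Each liver had 11697049 to 16827147 counted reads, and levels are given as CPM, reads scaled to a common library size after TMM normalization over the 20 livers. *Cideb* had 52 to 100 reads in WT and 0 to 5 in KO livers on WD, and 35 to 60 and 0 to 6 on CDA-HFD, as each label gives. KO liver 5 on CDA-HFD, with 1 *Cideb* read, stood apart from the other 4 KO livers in most of the 10 genes, and the calls of these genes and the counts of the lists that it enters are given with and without it. The 20 most abundant genes of each liver took 22.1% to 26.04% of the counted reads on WD and 14.97% to 23.7% on CDA-HFD, so scaling bears on every comparison of the diets. Means are given ± SD over the 5 livers of a group, and comparisons by edgeR give the log2 fold change with its standard error (SE) and the p adjusted over all genes tested, called at 0.05. The labels do not say that the livers of a group came from separate cages or cohorts, so p-values measure the spread between these livers.

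All 10 genes passed the filter on low counts in each comparison. Per kilobase of exon, WT livers on WD had most *Plvap* at 32.1 CPM per kb, followed by *Stab2* at 22.8 and *Ptprb* at 20.6. *Oit3* (15.04), *Stab1* (14.4), *Lyve1* (13.3) and *Clec4g* (13.2) came next, with overlapping values between neighbors in this order. *Kdr* (9.42) and *Flt4* (9.31) also overlapped, and *Cd34* came last at 0.243 CPM per kb. *Plvap*, named above as a capillary gene, was thus well expressed on WD, and *Cd34* was near the lower end of what was measured, with 14 to 36 reads per WT liver.

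**Figure D1:**
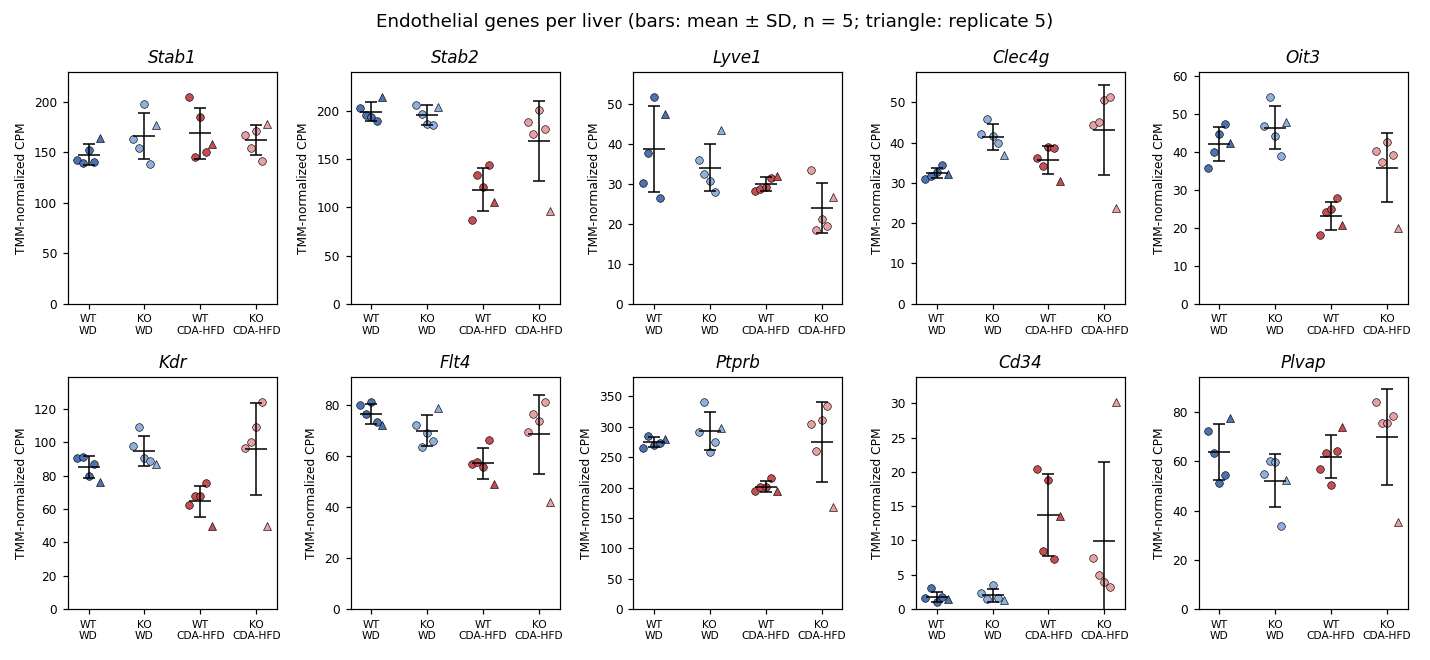
TMM-normalized CPM of the 10 genes (y axes, linear from 0) in each of the 20 livers, by group, with the mean ± SD of 5 livers and replicate 5 as a triangle. The SD bar of *Cd34* in KO livers on CDA-HFD reaches below 0 and is cut there. The 5 WT livers on CDA-HFD lie below all WT livers on WD for *Stab2*, *Oit3*, *Kdr*, *Flt4* and *Ptprb* and above them for *Cd34*, though with library size alone the log2 fold change is 0.0089 for *Kdr* and near 0 for *Flt4* and *Ptprb*, and KO liver 5 on CDA-HFD lies outside the range of the other KO livers for every gene but *Lyve1*.

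The first question was how the endothelial genes differed between the diets in WT livers. On CDA-HFD, 5 of the 10 genes were lower and 1 was higher than on WD. With TMM scaling, *Stab2*, *Oit3* and the receptors *Kdr*, *Flt4* and *Ptprb* fell to 0.548 to 0.756 times their level, and *Cd34* rose 7.72-fold, while with library size alone *Kdr*, *Flt4* and *Ptprb* did not pass. *Plvap* did not follow *Cd34*. Among all 16726 genes tested, 25.2% were lower, 25.9% were higher and 37.1% did not overlap between the groups, against 5, 1 and 6 of these 10 genes. The median log2 fold change was -0.39 over the 10 genes and -0.0030 over all genes.

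Of the receptors of sinusoidal endothelium, *Stab2*, the receptor that clears hyaluronan, was at 204, 196, 194, 189 and 215 CPM in WT livers 1 to 5 on WD and at 87.1, 134, 121, 143 and 106 CPM on CDA-HFD. Every value on CDA-HFD was below every value on WD, and liver 1 was the lowest. The means were 199 ± 10.02 and 118 ± 22.3 CPM, a log2 fold change of -0.76 (SE 0.13, edgeR adjusted p = 0.000422). *Oit3*, which encodes a zona pellucida domain protein of liver, was at 35.6, 39.9, 44.7, 47.2 and 42.3 CPM on WD and at 18.1, 24.1, 24.8, 27.9 and 20.6 CPM on CDA-HFD. Again the groups did not overlap and liver 1 was the lowest, with a log2 fold change of -0.87 (SE 0.12, edgeR adjusted p = 0.000153). The other 3 genes of this kind overlapped between the diets. *Stab1*, a related scavenger receptor that macrophages also carry, was at 148 ± 10.7 and 169 ± 25.3 CPM, a log2 fold change of 0.18 (edgeR adjusted p = 0.163). *Clec4g*, a sinusoidal C-type lectin, was at 32.4 ± 1.29 and 35.7 ± 3.46 CPM (0.13, edgeR adjusted p = 0.192). *Lyve1*, a hyaluronan receptor shared with lymphatic vessels, was at 38.8 ± 10.9 and 29.98 ± 1.77 CPM (-0.38, edgeR adjusted p = 0.0693). Its values on WD ranged from 26.5 to 51.9 CPM and those on CDA-HFD from 28.2 to 32.1 CPM, and it passed without WT WD liver 1 (-0.47, edgeR adjusted p = 0.0309) or 4 (-0.50, edgeR adjusted p = 0.0148), with adjusted p-values of 0.0148 to 0.780 over all alternatives. *Clec4g* passed as higher without WT CDA-HFD liver 5 (0.19, edgeR adjusted p = 0.0473, 0.000308 to 0.445 over all alternatives).

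The growth factor receptors were lower too, with TMM scaling though not with library size alone. *Kdr*, which encodes VEGF receptor 2, was at 90.8, 91.2, 79.9, 86.9 and 76.3 CPM in WT livers on WD and at 62.3, 67.6, 67.9, 75.5 and 50.1 CPM on CDA-HFD. The highest value on CDA-HFD lay just under the lowest on WD. Its log2 fold change was -0.40 (SE 0.11, edgeR adjusted p = 0.00777), and with all 20 livers in 1 fit it did not pass (edgeR adjusted p = 0.0537, 0.00180 to 0.949 over all alternatives). *Flt4*, or VEGF receptor 3, was at 80.1, 76.3, 80.97, 73.5 and 72.2 CPM on WD and at 56.9, 57.6, 55.8, 66.3 and 48.9 CPM on CDA-HFD. *Ptprb*, the phosphatase of the TIE2 receptor and of VE-cadherin, was at 265, 285, 269.8, 274 and 279.8 CPM on WD and at 195, 201, 201, 216 and 195 CPM on CDA-HFD. Neither gene overlapped between the diets, and *Ptprb* varied least among livers. The log2 fold change was -0.43 for *Flt4* (SE 0.083, edgeR adjusted p = 0.00112) and -0.45 for *Ptprb* (SE 0.071, edgeR adjusted p = 0.000311).

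The pair of capillary genes differed. *Cd34* was at 1.57, 3.10, 1.06, 1.69 and 1.46 CPM in WT livers on WD and at 20.4, 8.39, 18.8, 7.25 and 13.6 CPM on CDA-HFD. Livers 1 and 3 on CDA-HFD were the highest and livers 2 and 4 the lowest, still above each WD liver. The log2 fold change was 2.95 (SE 0.36, edgeR adjusted p = 6.67e-05). Summed stellate cell and fibroblast markers were also highest in WT livers 1 and 3 on CDA-HFD (3673 and 3735 CPM) and lowest in livers 2 and 4 (2491 and 2237 CPM). The same held for summed macrophage markers (3728 and 2697 against 1804 and 1844 CPM). It also held for summed genes of veins, arteries and basement membrane (1266 and 1172 against 848 and 882 CPM). The match was thus not particular to stellate cells, and summed cholangiocyte markers were highest in liver 5 (804 CPM). Which cells of the liver held the *Cd34* RNA was not tested. *Plvap* was at 72.2, 63.5, 51.1, 54.4 and 77.8 CPM on WD and at 57.1, 63.6, 50.5, 64.2 and 74.2 CPM on CDA-HFD. These groups overlapped almost fully, with a log2 fold change of -0.051 (SE 0.13, edgeR adjusted p = 0.772). For each of the 6 genes that passed, the exact permutation test over livers (two-sided) gave p = 0.00794, the smallest that 5 livers against 5 allow.

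With scaling by library size alone, the log2 fold change of all genes was shifted by a median of 0.42 against TMM, and 3 of the 10 genes passed as higher and 2 as lower. *Cd34*, *Stab1* and *Clec4g* were then the higher ones and *Stab2* and *Oit3* the lower ones, while the log2 fold change was 0.0089 for *Kdr*, -0.014 for *Flt4* and -0.033 for *Ptprb*, and that of *Lyve1* (0.053) and *Plvap* (0.36) turned positive. The falls of *Kdr*, *Flt4* and *Ptprb* are thus falls relative to the bulk of the genes. The same setting moved the medians by 0.25 in the diet comparison of KO livers and by -0.19 and -0.17 in the KO effect on CDA-HFD and its difference between the diets.

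In whole liver, fewer cells of a type and less RNA per cell cannot be told apart. The summed level of 25 pan-endothelial genes other than these 10 was 574 to 647 CPM in the WD livers and 563 to 683 CPM in the CDA-HFD livers of WT mice, so it overlapped. This sum does not show that the single genes were level, since 9 were lower and 4 higher (median log2 fold change -0.25). Abundant genes weigh most in it, such as *Aqp1* (means of 110 and 121 CPM) and *Eng* (104 and 117 CPM), while *Cdh5* went from 67.3 to 40.5 CPM. Markers of other cells moved with the diet, where 25.9% of all genes tested were higher and 25.2% lower. The summed hepatocyte markers ranged from 60976 to 103854 CPM on WD and from 32928 to 70963 CPM on CDA-HFD, and 7 of 9 were lower. Macrophage markers ranged from 423 to 1351 and from 1804 to 3728 CPM (6 of 12 higher, 2 lower), and stellate cell and fibroblast markers from 651 to 1173 and from 2237 to 3735 CPM (10 of 12 higher, 1 lower). Cholangiocyte markers went from 39.6 to 170.0 CPM to 372 to 804 CPM, with 7 of 8 higher. Lymphocyte markers ranged from 4.39 to 13.1 and from 12.98 to 25.5 CPM (4 of 8 higher). Lymphatic markers, whose sum is mostly *Prox1*, which hepatocytes also express, ranged from 242 to 318 and from 172 to 307 CPM, and 3 of 4 were higher. No gene of these marker lists was at 0 in every liver, and their part in the endothelial differences was not tested.

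**Figure D2:**
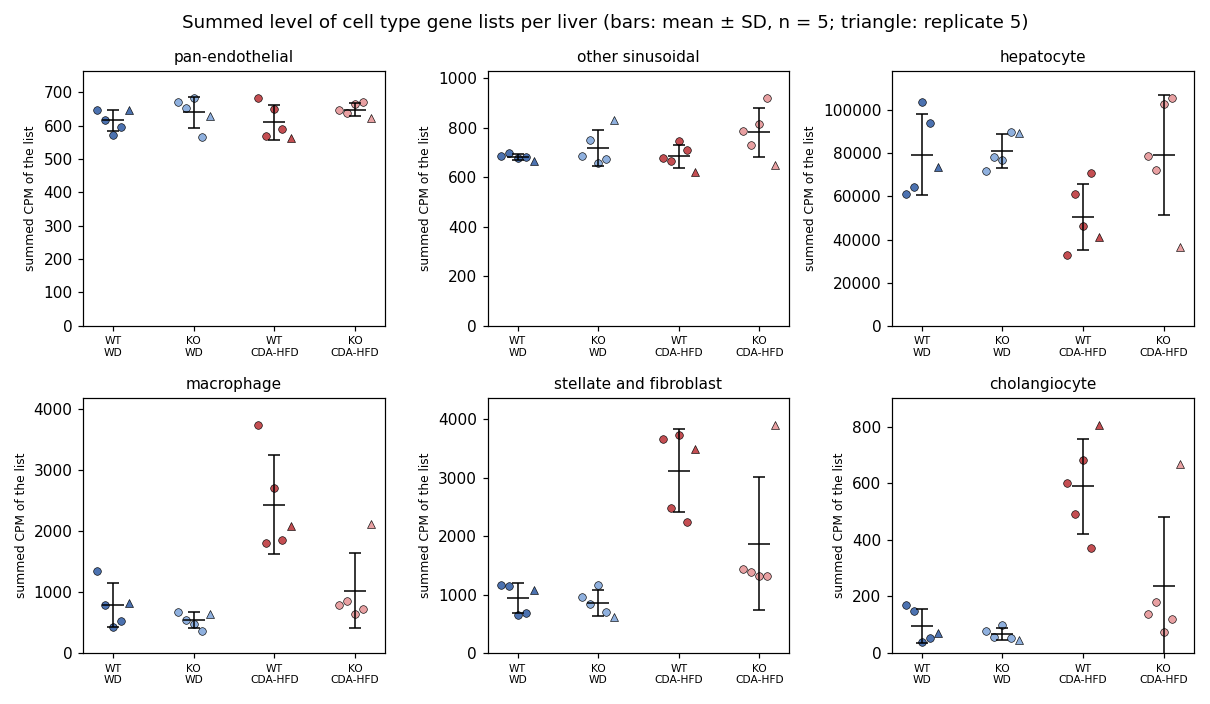
Summed TMM-normalized CPM of cell type gene lists (y axes, linear from 0) in each liver, by group, with the mean ± SD of 5 livers and replicate 5 as a triangle. The SD bar of the cholangiocyte list in KO livers on CDA-HFD is cut at 0. The pan-endothelial sums overlap in all 4 groups, whereas macrophage, stellate cell and cholangiocyte sums are higher in the 5 WT livers and in KO liver 5 on CDA-HFD than in the other 4 KO livers on that diet.

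KO livers were next compared with WT livers on WD, to see whether loss of *Cideb* in hepatocytes went with other levels of endothelial RNA. None of the 10 genes passed in edgeR, in a comparison in which 0.0126% of the 15848 genes tested were higher and 0.0631% lower. At an unadjusted p under 0.05 there was 1 gene, *Clec4g*, and DESeq2 called the same gene as its only one. *Clec4g* was at 30.95, 31.8, 32.8, 34.4 and 32.3 CPM in WT livers 1 to 5 and at 42.1, 45.7, 41.8, 39.96 and 36.9 CPM in KO livers 1 to 5. Every KO liver had more than every WT liver, with means of 32.4 ± 1.29 and 41.3 ± 3.24 CPM. The log2 fold change was 0.35 (SE 0.074, edgeR adjusted p = 0.140, DESeq2 adjusted p = 0.01001, exact permutation p = 0.00794), and its adjusted p was 0.0100 to 0.432 over all alternatives. It was the 1 gene of 10 without overlap, against 2.22% of all genes. *Stab2* was at 199 ± 10.02 and 196 ± 9.89 CPM, a log2 fold change of -0.024 (SE 0.07).

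The other 8 log2 fold changes on WD lay between -0.29 for *Plvap* and 0.19 for *Cd34*, with edgeR adjusted p-values of at least 0.534. *Plvap* was at 72.2, 63.5, 51.1, 54.4 and 77.8 CPM in WT livers and at 54.9, 60.1, 59.8, 33.7 and 52.5 CPM in KO livers, and KO liver 4 was the lowest. *Kdr* was at 85.04 ± 6.66 and 94.9 ± 9.12 CPM, *Flt4* at 76.6 ± 3.89 and 69.9 ± 6.04 CPM and *Ptprb* at 275 ± 7.83 and 293 ± 30.8 CPM. In all of these the WT and KO livers overlapped. *Cd34* was low in both, from 1.06 to 3.10 CPM in WT livers and from 1.25 to 3.54 CPM in KO livers. The median over the 10 genes was 0.12, against 0.012 over all genes.

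On CDA-HFD, KO livers 1 to 4 had more *Stab2*, *Oit3*, *Clec4g*, *Kdr*, *Flt4*, *Ptprb* and *Plvap* than each WT liver with TMM scaling. KO liver 5 did not. With library size alone, the log2 fold change over all 5 KO livers was 0.0375 for *Clec4g*, 0.0415 for *Flt4* and -0.0569 for *Plvap*. It was then 0.2957 for *Stab2*, 0.4126 for *Oit3*, 0.3393 for *Kdr* and 0.2216 for *Ptprb*. With all 5 KO livers none of the 10 genes passed in edgeR fitted within the groups compared, where 8.19% of the 17204 genes tested were higher and 7.29% lower. An unadjusted p under 0.05 was reached by 4 genes (*Stab2*, *Oit3*, *Kdr* and *Ptprb*), and DESeq2 called 3 of these (*Oit3*, *Kdr* and *Ptprb*). None of the 10 was free of overlap between the groups, against 9.57% of all genes. The median log2 fold change was 0.26 over the 10 genes and 0.0050 over all genes.

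*Stab2* was at 188, 176, 201, 181 and 95.9 CPM in KO livers 1 to 5 on CDA-HFD, against 87.1 to 143 CPM in WT livers. KO liver 5 lay inside the WT range and the others above it, near the 185 to 206 CPM of KO livers on WD. The log2 fold change was 0.51 (SE 0.20, edgeR adjusted p = 0.101, exact permutation p = 0.0476). *Oit3* was at 40.3, 37.2, 42.5, 39.04 and 19.98 CPM, against 18.1 to 27.9 CPM in WT livers, again with KO liver 5 inside the WT range. Its log2 fold change of 0.63 (SE 0.20) came nearest to passing (edgeR adjusted p = 0.0511), and it passed without WT liver 4 (0.71, edgeR adjusted p = 0.0486, 0.000711 to 0.125 over all alternatives). *Clec4g* was at 44.4, 45.00, 50.5, 51.4 and 23.9 CPM, against 30.6 to 38.8 CPM, and here KO liver 5 was below each WT liver. *Stab1*, at 169 ± 25.3 CPM in WT livers against 162 ± 14.7 CPM, overlapped and had a log2 fold change of -0.059. *Lyve1* went the other way, at 33.6, 18.6, 21.3, 19.4 and 26.7 CPM in KO livers against 28.2 to 32.1 CPM in WT livers. KO livers 2 to 5 were below each WT liver and KO liver 1 was above them, a log2 fold change of -0.33 (SE 0.15, edgeR adjusted p = 0.151) that passed without KO liver 1 (-0.49, edgeR adjusted p = 0.0484, 0.0484 to 0.304 over all alternatives).

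*Kdr* was at 96.4, 100.2, 109, 124 and 50.1 CPM in KO livers on CDA-HFD, against 50.1 to 75.5 CPM in WT livers. *Flt4* was at 69.3, 76.6, 73.6, 81.2 and 42.1 CPM, against 48.9 to 66.3 CPM, and *Ptprb* was at 304, 259.8, 311, 335 and 168 CPM, against 195 to 216 CPM. In each of the 3, KO livers 1 to 4 were above each WT liver with TMM scaling. KO liver 5 was the lowest of all 20 livers for *Flt4* and *Ptprb*. The log2 fold changes were 0.57 for *Kdr* (SE 0.21, edgeR adjusted p = 0.0827), 0.26 for *Flt4* (SE 0.16, edgeR adjusted p = 0.270) and 0.45 for *Ptprb* (SE 0.16, edgeR adjusted p = 0.0815).

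*Cd34* was at 7.46, 4.94, 3.99, 3.23 and 30.2 CPM in KO livers on CDA-HFD, against 20.4, 8.39, 18.8, 7.25 and 13.6 CPM in WT livers. Of all 20 livers, KO liver 5 had the highest stellate cell and fibroblast sum (3899.8 CPM). It also had the highest lymphocyte sum (25.8 CPM) and vein, artery and basement membrane sum (1284 CPM). *Cd34* was the highest of all 20 livers there as well, and in KO livers 2 to 4 it was below each WT liver. The log2 fold change over the 5 KO livers was -0.46 (SE 0.58, edgeR adjusted p = 0.599). *Plvap* was at 84.2, 75.6, 75.7, 78.5 and 35.4 CPM in KO livers, against 50.5 to 74.2 CPM in WT livers. KO livers 1 to 4 were above each WT liver and KO liver 5 below each, and the log2 fold change was 0.17 (SE 0.21, edgeR adjusted p = 0.579) and -0.057 with library size alone.

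Without KO liver 5, which was left out because its values stood apart, 7 of the 10 genes were higher in KO livers and 1 was lower, where 19.6% of the 17411 genes tested were higher and 21.8% lower. The liver was singled out by its values in these same genes, so the p-values without it are biased toward small ones. They describe the remaining livers and are not independent tests, here and in the other comparisons that leave it out. *Oit3* had a log2 fold change of 0.78 (edgeR adjusted p = 0.000711), *Kdr* 0.73 (0.00102), *Stab2* 0.66 (0.00326), *Ptprb* 0.58 (0.000956), *Clec4g* 0.42 (0.00398), *Flt4* 0.39 (0.00642) and *Plvap* 0.34 (0.0256). *Cd34* was the gene that fell, by a log2 fold change of -1.48 (SE 0.34, edgeR adjusted p = 0.00561). *Lyve1* (-0.37) and *Stab1* (-0.092) did not pass. These fits used TMM scaling and were not repeated with library size alone. With all 5 KO livers, that setting gave log2 fold changes of 0.0375 for *Clec4g*, 0.0415 for *Flt4* and -0.0569 for *Plvap*. The calls on this diet therefore depend on whether 1 liver is counted, and also on the fit. With all 5 KO livers, edgeR fitted on all 20 livers called *Stab2*, *Oit3*, *Kdr* and *Ptprb* (edgeR adjusted p = 0.0222, 0.0101, 0.0188 and 0.0192). In the fits that left out another liver at most 1 gene passed in either direction.

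**Figure D3:**
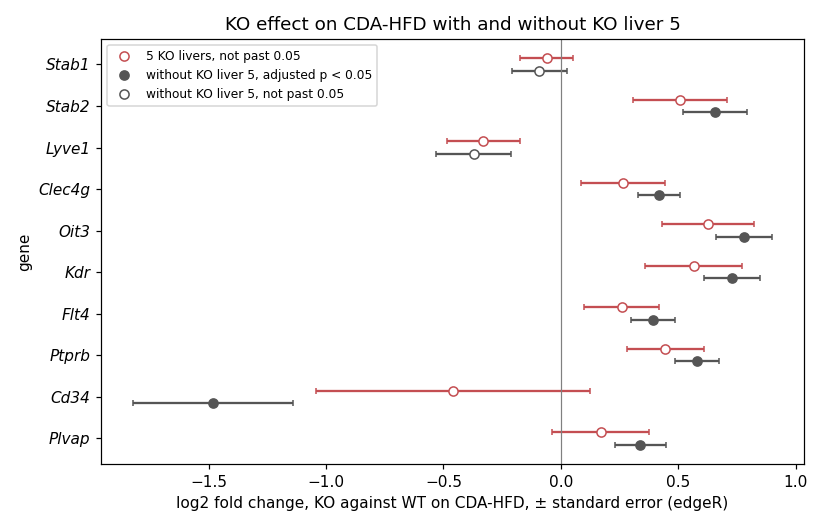
Log2 fold change of the 10 genes between KO and WT livers on CDA-HFD (x axis) with standard errors from edgeR, for 5 KO livers (upper point of each pair) and without KO liver 5 (lower point). Filled points have an adjusted p under 0.05. None is filled with 5 KO livers, and 8 are filled without liver 5, of which *Cd34* alone lies to the left of 0. Both fits used TMM scaling.

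In KO liver 5 on CDA-HFD the pan-endothelial sum was 623 CPM, against 638 to 672 CPM in KO livers 1 to 4 and 563 to 683 CPM in WT livers. Other lists set it apart more. Its hepatocyte sum was 36743 CPM, against 72473 to 105628 CPM in KO livers 1 to 4. The macrophage sum was 2112 CPM against 643 to 856 CPM, the stellate cell and fibroblast sum 3899.8 CPM against 1321 to 1446 CPM and the cholangiocyte sum 667 CPM against 73.8 to 179 CPM. Its lymphocyte sum was 25.8 CPM against 10.3 to 16.7 CPM and its lymphatic sum 209 CPM against 347 to 448 CPM. In the hepatocyte, macrophage, stellate cell and cholangiocyte sums this liver had a value inside the WT range on CDA-HFD or beyond it. With all 5 KO livers, 2 of 9 hepatocyte markers were higher in KO than in WT livers, 5 of 12 macrophage markers were lower, and of 12 stellate cell and fibroblast markers 1 was higher and 2 were lower. None of the cholangiocyte, lymphatic or lymphocyte markers passed. Without KO liver 5, 6 of 9 hepatocyte markers were higher, 2 of 12 macrophage markers were higher and 7 lower, and of 12 stellate cell and fibroblast markers 1 was higher and 9 were lower. Then 7 of 8 cholangiocyte markers were lower, with a median log2 fold change of -1.57, as was 1 of 9 lymphocyte markers, and of 4 lymphatic markers 1 was higher and 2 were lower. Over all genes, 8.19% were higher and 7.29% lower with all 5 KO livers, and 19.6% and 21.8% without KO liver 5. The part of these cells in the endothelial values was not tested.

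In KO livers, the diets were then compared in the same way. Here 1 of the 10 genes, *Cd34*, was higher on CDA-HFD and none was lower, where 9.19% of the 16387 genes tested were higher, 7.85% were lower and 15.2% did not overlap. None of the 10 was free of overlap, and 2 had an unadjusted p under 0.05. *Cd34* averaged 2.04 ± 0.949 CPM with WD and 9.96 ± 11.4 CPM with CDA-HFD, a log2 fold change of 2.32 (SE 0.64, edgeR adjusted p = 0.0313). Without KO CDA-HFD liver 5 it was 1.28 (SE 0.33, edgeR adjusted p = 0.0219), and *Plvap* passed too (0.58, edgeR adjusted p = 0.0193), with 33.7 to 60.1 CPM on WD and 75.6 to 84.2 CPM in the 4 livers on CDA-HFD. *Cd34* did not pass without KO WD liver 1, 2, 4 or 5, with edgeR adjusted p-values of 0.0561, 0.0733, 0.0717 and 0.0723 (0.00116 to 0.0844 over all alternatives). *Lyve1* was at 34.1 ± 5.96 and 23.9 ± 6.27 CPM, a log2 fold change of -0.52 (SE 0.18, edgeR adjusted p = 0.0660), and it passed without KO CDA-HFD liver 1 (-0.67, edgeR adjusted p = 0.0250) and in DESeq2 (adjusted p = 0.0396), with 0.0250 to 0.376 over all alternatives.

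With TMM scaling, the 5 genes that fell with diet in WT livers had smaller differences in KO livers. They were picked for passing in WT livers, so smaller differences in other livers can follow from that choice. *Stab2* was at 196 ± 9.89 CPM on WD and 168 ± 41.6 CPM on CDA-HFD, a log2 fold change of -0.23 (SE 0.16, edgeR adjusted p = 0.364). *Oit3* was at 46.4 ± 5.71 and 35.8 ± 9.05 CPM (-0.38, edgeR adjusted p = 0.153). *Kdr*, *Flt4* and *Ptprb* had log2 fold changes of 0.0083, -0.035 and -0.10, each smaller than its standard error. With library size alone these were 0.22, 0.19 and 0.12 in KO livers, against 0.0089, -0.014 and -0.033 in WT livers, so the smaller difference did not hold there. Without KO CDA-HFD liver 5 the 5 genes had log2 fold changes between -0.23 for *Oit3* and 0.17 for *Kdr*, and none passed. The diet comparisons in WT and KO livers share no livers, but the difference between them is the same contrast as the difference of the KO effect between the diets, which was tested itself.

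That test, fitted on all 20 livers, called none of the 10 genes, where 0.331% of the 17804 genes tested had a higher and 0.225% a lower KO effect on CDA-HFD. An unadjusted p under 0.05 was reached by 3 genes, and DESeq2 also called none. These were *Stab2*, with a difference of 0.54 on the log2 scale (SE 0.22, edgeR adjusted p = 0.249), *Oit3* with 0.49 (SE 0.23, edgeR adjusted p = 0.310) and *Flt4* with 0.40 (SE 0.18, edgeR adjusted p = 0.299). Without KO CDA-HFD liver 5 and with TMM scaling, the KO effect was higher on CDA-HFD for 5 genes and lower for 1. *Stab2* then differed by 0.68 (edgeR adjusted p = 0.00786), *Oit3* by 0.64 (0.0165), *Kdr* by 0.58 (0.0192), *Flt4* by 0.53 (0.00879), *Ptprb* by 0.49 (0.0138) and *Cd34* by -1.67 (0.0440). The shares over all genes were then 6.17% higher and 5.71% lower.

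**Figure D4:**
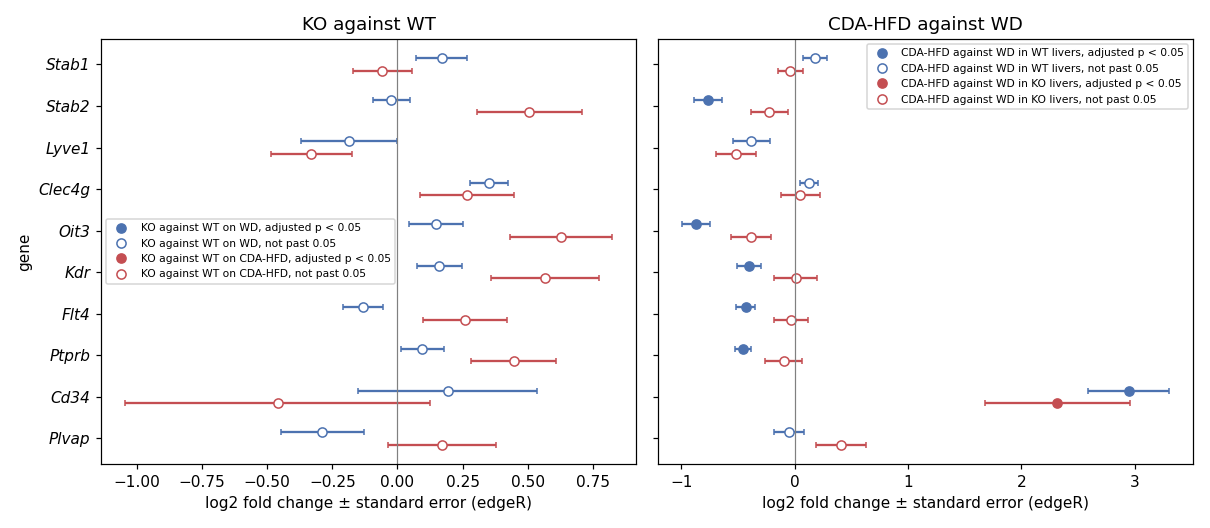
Log2 fold changes of the 10 genes (x axes) with standard errors from edgeR, on the left for KO against WT livers on WD (blue) and CDA-HFD (red) and on the right for CDA-HFD against WD in WT (blue) and KO livers (red). Filled points have an adjusted p under 0.05. None is filled on the left, and on the right *Stab2*, *Oit3*, *Kdr*, *Flt4* and *Ptprb* are filled to the left of 0 in WT livers (with TMM scaling; with library size alone *Kdr* is at 0.0089, *Flt4* at -0.014 and *Ptprb* at -0.033) and *Cd34* to the right of 0 in both genotypes.

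Per kilobase of exon, *Cd34* stood at 0.657 to 1.90 percent of *Stab2* in WT livers on WD and at 0.737 to 2.28 percent in the KO livers. With CDA-HFD it was 6.07 to 28.1 percent in WT livers. KO livers 1 to 4 on CDA-HFD had 2.14 to 4.76 percent and KO liver 5 had 37.8 percent. A ratio within 1 liver does not depend on the scaling of libraries, and the 4 KO livers thus lay between the WD livers and the WT livers on CDA-HFD, meeting the first range but not the second. *Plvap* stood at 116 to 159.7 percent of *Stab2* per kilobase in WT livers on WD and at 184 to 309 percent on CDA-HFD, where *Stab2* fell and *Plvap* did not pass the test. In KO livers it stood at 80.3 to 142 percent on WD and at 163 to 197 percent on CDA-HFD, where neither gene passed with all 5 livers. In both genotypes this ratio did not overlap between the diets.

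**Figure D5:**
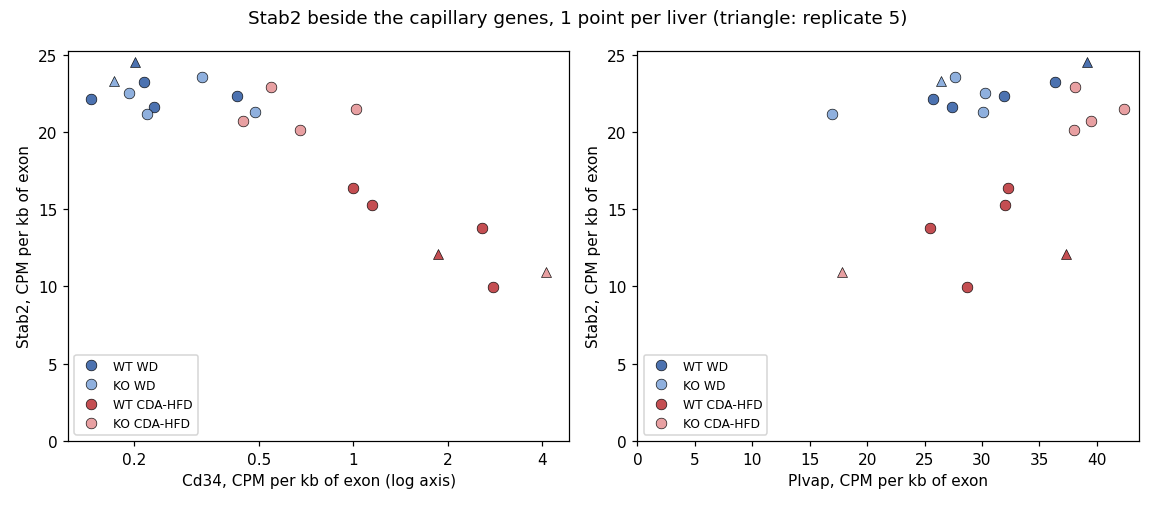
*Stab2* (y axis, CPM per kb of exon) against *Cd34* (left, log axis) and *Plvap* (right, linear axis), with 1 point per liver, colors for the 4 groups and replicate 5 as a triangle. WT livers and KO liver 5 on CDA-HFD lie at the lower right on the left panel, with at most 16.4 CPM per kb of *Stab2*, and the other 14 livers lie above them.

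Other genes of endothelium were counted from lists, since a count of a list does not show that the list stands apart. Each list is described by its counts and, with all livers, its median. Between the diets in WT livers, 25.2% of all genes tested were lower on CDA-HFD and 25.9% higher, which bears on each count below. In WT livers on CDA-HFD against WD, 9 of 25 pan-endothelial genes were lower and 4 higher, with a median log2 fold change of -0.25 (3 lower and 8 higher with library size alone). *Robo4*, a guidance receptor that stabilizes vessels, was lower (log2 fold change -0.96, edgeR adjusted p = 9.38e-05), as was *Cdh5*, which encodes VE-cadherin (-0.74, edgeR adjusted p = 0.000190), and *Cav1*, which encodes caveolin, was higher (1.39, edgeR adjusted p = 0.000102). Of 16 further sinusoidal genes, 4 were higher and 3 lower (median 0.038), or 10 higher and 1 lower with library size alone. Among these *Maf*, a transcription factor, was higher (0.72, edgeR adjusted p = 0.000358), and *Gpr182* (-0.67, edgeR adjusted p = 0.000581) and *Dnase1l3* (-0.67, edgeR adjusted p = 0.00102) were lower. Of 18 genes of veins, arteries and basement membrane, 9 were higher and 1 lower (median 0.44), with *Ednrb*, an endothelin receptor (1.73, edgeR adjusted p = 4.17e-06), *Sparcl1* (2.90, edgeR adjusted p = 2.54e-05) and *Vcam1*, a leukocyte adhesion molecule (0.96, edgeR adjusted p = 0.000266), first among the higher ones. Stellate cells and other cells also express *Ednrb*, *Sparcl1* and *Vcam1*.

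Of 25 genes of VEGF, angiopoietin, Notch, BMP9 and shear stress signaling, 5 were higher and 8 lower on CDA-HFD in WT livers (median 0.17). Among all genes tested, 25.9% were higher and 25.2% lower. *Vegfc*, the ligand of the receptor encoded by *Flt4*, was higher (1.07, edgeR adjusted p = 6.24e-05). *Flt4* itself was lower with TMM scaling but not with library size alone (-0.014). The Notch receptors *Notch4* (-0.83, edgeR adjusted p = 0.000129) and *Notch1* (-0.59, edgeR adjusted p = 0.000181) were lower with TMM scaling. In KO livers against WT livers on CDA-HFD, 2 of these genes were higher and 3 lower, among them *Vegfc*, with a log2 fold change of -1.03 (edgeR adjusted p = 0.00733), *Nrp2*, a co-receptor of VEGF-C (-0.64, edgeR adjusted p = 0.00954), and *Notch4*, higher with a log2 fold change of 0.54 (edgeR adjusted p = 0.0154). Of the sinusoidal list 2 of 16 were higher and none lower, *Wnt2*, a ligand made by sinusoidal endothelium (0.81, edgeR adjusted p = 0.0137), and *Ehd3* (0.61, edgeR adjusted p = 0.0192). Of the vein, artery and basement membrane list none of 18 was higher and 7 were lower, first *Esm1* (-2.93, edgeR adjusted p = 0.00844), *Sele* (-1.39, edgeR adjusted p = 0.0154) and *Ednrb* (-0.77, edgeR adjusted p = 0.0276). Of the pan-endothelial list none of 25 was higher and 3 were lower, *Ecscr* (-1.31, edgeR adjusted p = 0.00305), *Fli1* (-0.76, edgeR adjusted p = 0.0264) and *Cd93* (-0.88, edgeR adjusted p = 0.0420). In this list 18 of the 25 log2 fold changes were positive, with a median of 0.136. The medians were 0.099 for the sinusoidal, -0.466 for the vein, artery and basement membrane and 0.04 for the signaling list. Among all genes tested, 8.19% were higher and 7.29% lower. Without KO liver 5 the counts were 6 higher and 1 lower of 16 sinusoidal genes, 1 and 16 of 18 vein, artery and basement membrane genes, 9 and 4 of 25 pan-endothelial genes and 5 and 8 of 25 signaling genes. The shares over all genes were then 19.6% higher and 21.8% lower.

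On WD none of the genes of these 4 lists, and none of the markers of other cells, passed between KO and WT livers. Median log2 fold changes were 0.107 for the sinusoidal, 0.119 for the pan-endothelial, -0.33 for the vein, artery and basement membrane and -0.031 for the signaling list. An unadjusted edgeR p under 0.05 was reached by 4 of 16, 1 of 25, 9 of 19 and 6 of 25 genes of these lists. The genes with the smallest p of each endothelial list, with their edgeR adjusted p, were *Ehd3* (0.259), *Fli1* (0.408), *Klf4* (0.248) and *Selp* (0.324). Between the diets in KO livers, 3 of 16 sinusoidal genes were higher, with log2 fold changes of 1.30 for *Wnt2*, 0.95 for *Rspo3*, which like *Wnt2* feeds Wnt signaling of hepatocytes, and 0.82 for *Adam23*. In the same comparison 1 of 25 pan-endothelial genes was higher and 3 were lower, 4 of 17 vein, artery and basement membrane genes were higher and 1 lower, and 3 of 25 signaling genes were higher and 3 lower. *Esm1* had the smallest adjusted p of these (-4.48, edgeR adjusted p = 7.22e-05), followed by *Nrp2* (-1.02, edgeR adjusted p = 0.000485), and *Dll4*, a Notch ligand of arteries and sprouting tips, was lower as well (-1.18, edgeR adjusted p = 0.00920). The list medians were 0.036 (sinusoidal), -0.182 (pan-endothelial), 0.55 (vein, artery and basement membrane) and 0.231 (signaling). Among all genes tested, 9.19% were higher and 7.85% lower. Of the other cells, 4 of 12 macrophage, 5 of 12 stellate cell and fibroblast, 3 of 8 cholangiocyte and 4 of 6 lymphocyte markers were higher and none was lower, and no hepatocyte or lymphatic marker passed. Without KO CDA-HFD liver 5, the endothelial counts in this comparison were 4 higher of 16 sinusoidal genes, 1 higher and 2 lower of 25 pan-endothelial genes, 4 higher and 2 lower of 17 vein, artery and basement membrane genes and 2 higher and 3 lower of 25 signaling genes. Among all 16555 genes tested, 9.03% were then higher and 8.37% lower. Of the other cells, 5 macrophage, 4 stellate cell and fibroblast, 3 cholangiocyte, 2 lymphocyte and 1 lymphatic marker were then higher, and again no hepatocyte marker passed. With all 20 livers, the KO effect differed between the diets for *Wnt2* (1.28, edgeR adjusted p = 0.0240), *Esm1* (-3.38, edgeR adjusted p = 0.00342) and *Nrp2* (-0.94, edgeR adjusted p = 0.0166) among the endothelial lists, and for none of the markers of other cells. The list medians were 0.033 (sinusoidal), 0 (pan-endothelial), -0.275 (vein, artery and basement membrane) and -0.027 (signaling). Without KO CDA-HFD liver 5, *Wnt2*, *Esm1* and *Nrp2* passed again, with differences of 1.22, -3.11 and -1.01. The KO effect was then higher on CDA-HFD for 4 and lower for 0 of 16 sinusoidal genes, for 2 and 3 of 25 pan-endothelial genes, for 0 and 4 of 19 vein, artery and basement membrane genes and for 3 and 3 of 25 signaling genes. It was then also lower for 5 macrophage, 5 stellate cell and fibroblast and 5 cholangiocyte markers and higher for 2 hepatocyte markers and 1 lymphatic marker. Over all genes the KO effect was then higher for 6.17% and lower for 5.71%, against 0.331% and 0.225% with all 20 livers.

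Unlike most of the 10 genes, *Esm1* and *Wnt2* had KO liver 5 on the side of the other KO livers. *Esm1*, a secreted proteoglycan induced by VEGF in endothelium, had 4.86, 5.67, 3.56, 3.87 and 4.16 CPM in WT livers on WD and 8.46, 4.67, 4.19, 5.77 and 7.36 CPM in the KO livers. On CDA-HFD it had 1.72, 2.47, 1.66, 3.49 and 1.14 CPM in WT livers and 0.418, 0.444, 0.266, 0.147 and 0.0600 CPM in KO livers, the latter resting on 1 to 7 reads each. *Wnt2* had 4.004, 3.17, 3.48, 2.69 and 3.61 CPM in WT livers on CDA-HFD and 6.62, 5.45, 4.65, 6.25 and 6.90 CPM in the KO livers. In both genes the WT and KO livers on this diet did not overlap, which held for 9.57% of all genes tested. It also held for other genes of the lists, such as *Vegfc*, *Nrp2* and *Notch4*, so it is not particular to *Esm1* and *Wnt2*.

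Over the 20 livers, the genes whose log2 CPM, centered on its mean, lay closest to that of *Stab2* were *Usp10*, *Prkar2a*, *Tecr*, *Wbp2* and *F12*, with root mean square differences of 0.114, 0.116, 0.122, 0.123 and 0.123 among 11839 genes. The standard deviation of *Stab2* itself was 0.401 on this scale. For *Plvap*, with a standard deviation of 0.355, they were *Tubb4b* (0.205), *Tgfa* (0.235), *Gss* (0.237), *Kif24* (0.239) and *Caskin2* (0.241). None of these 10 nearest genes was on a list of endothelial genes. The livers are not independent points for such a comparison, since they share diets and genotypes.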

How the data were processed

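RNA-seq of whole mouse liver gave 1 table of read counts per gene symbol for 20 livers. The authors deposited raw counts in the form htseq-count writes, without normalization, and the submitters' processing notes name mm10. The aligner and counter are not given in the sources used here. Library kits differ between the labels (a directional NEBNext kit) and the study's methods (a Nugen Ovation library with 75-base single reads). The 5 entries for unassigned reads, 50.3% to 57.0% of the total per liver, were left out.

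Groups came from the labels. Counts were fitted in R 4.3.3 with edgeR 4.0.16 (filterByExpr, TMM, quasi-likelihood F test, Benjamini-Hochberg adjustment over all genes tested, threshold 0.05), within the 2 groups compared and over all 20 livers for the difference between diets. For each of the 10 genes an exact permutation test (two-sided, 252 splits of the livers) was added. Log2 CPM used a prior count of 2. No 2 libraries of a group were copies (chi-square per gene 6.94 to 124 over 40 pairs). Alternatives were RLE factors, library size only, DESeq2 1.42.0, 2 other filters (none, or at least 10 counts in every library), 1 fit of all livers, a replicate block and each library left out. The edgeR fits were tested on simulated data. Plots used matplotlib 3.10.9 under Python 3.11.15.

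Exon lengths, the merged exons of each gene, came from the GRCm38 annotation. The 10 genes and the 13 lists, of 155 genes with 154 in the table, were chosen with earlier results of these data known. Besides the 10 genes, up to 3 genes per list and comparison with the smallest adjusted p past the threshold were named, and for *Stab2* and *Plvap* the 5 nearest genes above a mean log2 CPM of 2. Where none passed, it was the gene with the smallest p. The values per liver of *Esm1* and *Wnt2* were chosen after they were seen.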

Additional observations from a re-analysis of the deposited data

Results flagged for a closer look

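In 6 of the 40 groups of 5 livers (10 genes in 4 groups), 1 liver lay farther from the others than Dixon's critical value allows, where chance gives about 2 on average. The 40 checks are not independent, since the 10 genes of a group share the same 5 livers, so 6 against 2 does not measure an excess. The number given is the gap to the nearest liver as a share of the whole range of the group.

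Of the 6, 5 were KO liver 5 on CDA-HFD. It stood apart in *Cd34* (0.843, 30.2 CPM against 3.23 to 7.46 CPM in the rest of the group), *Plvap* (0.824, 35.4 CPM against 75.6 to 84.2 CPM), *Stab2* (0.766, 95.9 CPM against 176 to 201 CPM), *Oit3* (0.765, 19.98 CPM against 37.2 to 42.5 CPM) and *Clec4g* (0.745, 23.9 CPM against 44.4 to 51.4 CPM). The direction was upward for *Cd34* and downward for the other 4. KO liver 4 on WD stood apart in *Plvap* (0.715, 33.7 CPM against 52.5 to 60.1 CPM).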

How the results depend on the processing

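Of 940 refits of single genes (10 genes, 5 comparisons, each with 7 or 6 other settings and each library left out), 867 kept direction and side of the threshold, 8 lost a call, 38 gained one and 27 turned in sign. No cause was tested for these changes. By design the replicate block uses up degrees of freedom and leaving out a library removes 1 sample.

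Counts of the 10 genes changed as follows. On WD, DESeq2 called 1 gene higher in KO livers. On CDA-HFD, 1 was higher in KO livers with RLE factors, with at least 10 counts in every library and with the replicate block, 3 with DESeq2 and 4 with all livers in 1 fit. Between the diets, library size alone gave 3 higher and 2 lower in WT livers and 2 higher in KO livers. In KO livers DESeq2 and the fit of all livers gave 1 lower, and the replicate block gave 0 higher and 1 lower. With 1 library left out, KO livers on CDA-HFD had 0 to 7 higher and 0 to 1 lower genes, the diets differed by 1 to 2 higher genes in WT livers and by 0 to 2 higher and 0 to 1 lower genes in KO livers, and the KO effect differed between diets for 0 to 5 genes upward and 0 to 1 downward. The upper ends of 7 and 5 came without KO CDA-HFD liver 5.

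With library size alone the sign turned for *Plvap* in KO livers on CDA-HFD (-0.0569), for *Lyve1* (0.0527), *Kdr* (0.0089) and *Plvap* (0.361) between the diets in WT livers, and for *Stab1* (0.2187), *Flt4* (0.1869) and *Ptprb* (0.1197) in KO livers. The replicate block turned *Kdr* (-0.0425) there. With 1 library left out, the log2 fold change on WD was -0.0506 to 0.0036 for *Stab2* and -0.1015 to 0.4851 for *Cd34*, and on CDA-HFD -0.104 to 0.0171 for *Stab1*. Between the diets it was -0.1298 to 0.0274 for *Plvap* in WT livers, and in KO livers -0.0976 to 0.0309 for *Stab1*, -0.0244 to 0.2003 for *Clec4g*, -0.0988 to 0.1686 for *Kdr*, -0.1003 to 0.0942 for *Flt4* and -0.1736 to 0.0339 for *Ptprb*. The difference of the KO effect for *Clec4g* was -0.1562 to 0.0738.

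Over all genes, 12 passed between KO and WT livers on WD, against 164 with DESeq2, 38 without a filter, 26 with all livers in 1 fit, 2 with the replicate block and 1 to 33 with a library left out. On CDA-HFD 2664 passed, against 1709 with library size alone, 4146 with DESeq2, 4170 with all livers in 1 fit and 709 to 7201 with a library left out. Between the diets in KO livers 2792 passed, against 4476 with all livers in 1 fit and 1568 to 2881 with a library left out. The difference of the KO effect passed for 99 genes, against 44 with library size alone, 434 with DESeq2, 52 without a filter, 63 with the replicate block and 35 to 2138 with a library left out.

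Same-numbered livers did not deviate together in every pair (correlations from -0.392 to 0.374), so the number is not known to pair them. With the block *Kdr* passed in KO livers on CDA-HFD (edgeR adjusted p = 0.0351), and between the diets in KO livers *Lyve1* passed (0.0285) and *Cd34* did not (0.0844). It changed no other call of the 10 genes. *Cd34* is limited by its depth, with as few as 14 reads in a liver.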

Other observations

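Stellate cell and fibroblast markers held genes that went in opposite directions in KO livers on CDA-HFD. *Hhip*, a hedgehog-binding protein of quiescent stellate cells, was higher (log2 fold change 1.51, edgeR adjusted p = 0.0218), with 1.09 to 3.03 CPM in WT and 3.84 to 11.4 CPM in KO livers. *Acta2*, a smooth muscle actin made by activated stellate cells, was lower (-1.90, edgeR adjusted p = 0.0118), as was *Timp1*, an inhibitor of matrix proteases (-2.19, edgeR adjusted p = 0.0136). *Timp1* was at 0 reads in 1 of the 20 livers.

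*Ackr1*, a gene of venular endothelium, had 0 reads in all 20 livers. *Gdf2*, which encodes the BMP9 that stellate cells secrete, was higher on CDA-HFD than on WD in both genotypes. The log2 fold change was 1.44 in WT livers (edgeR adjusted p = 0.000207), from 25.2 to 28.5 CPM on WD and from 49.7 to 110.003 CPM on CDA-HFD, and 1.10 in KO livers (edgeR adjusted p = 0.00649), from 25.7 to 33.6 CPM on WD and from 45.9 to 106 CPM on CDA-HFD.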
